A study of Homo sapiens with 2 samples.

Results

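Tubulins are the proteins from which microtubules are built, and 10 of their genes are described here in 2 RNA sequencing libraries of KYSE30, a long-established human line of squamous carcinoma of the esophagus. The genes were taken by symbol: the alpha tubulins TUBA1A, TUBA1B, TUBA1C and TUBA4A, the beta tubulins TUBB, TUBB2A, TUBB3, TUBB4B and TUBB6, and the gamma tubulin TUBG1. Each of the 10 matched 1 Entrez gene among the 40392 genes of the deposited tables. The first library was made from KYSE30 stable transfectants of pIRES2-EGFP (mock) and the second from KYSE30 stable transfectants of an expression vector for human RHCG, an ammonia and ammonium transporter of normal esophageal epithelium. There was 1 library per group, and the labels do not say whether the transfectants were clones or pools. With 1 library per group no test between the groups was possible, and each difference below compares these 2 libraries only. The set was selected on gene family with the log2 ratios of these same libraries known, so the direction of its members is a description and supports nothing by itself.

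Alpha and beta tubulin pair as a dimer, and the dimers add head to tail into protofilaments that close into the microtubule wall. Gamma tubulin sits in a ring complex at the centrosome and starts new microtubules. Vertebrates carry several genes for each class, called isotypes, which differ mainly in the acidic tail at the end of the protein, which enzymes modify. Cells hold their tubulin RNA in check by autoregulation: when free dimer is plentiful, the factor TTC5 recognises the first residues of tubulin as it leaves the ribosome, and the CCR4-NOT complex then removes the messenger. Squamous epithelial cells express several isotypes at once. TUBB3 is best known from neurons, TUBB2A from brain, and TUBA1B, TUBA1C, TUBB and TUBB4B from most dividing cells.

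The start of the coding sequence is shown because autoregulation reads the residues it encodes. The first 15 coding bases of each gene follow, from the GENCODE release 29 transcripts, with the first 4 codons in capitals.
TUBA1A: ATGCGTGAGTGCatc
TUBA1B: ATGCGTGAGTGCatc
TUBA1C: ATGCGTGAGTGCatc
TUBA4A: ATGCGTGAATGCatc
TUBB: ATGAGGGAAATCgtg
TUBB2A: ATGCGCGAGATCgtg
TUBB3: ATGAGGGAGATCgtg
TUBB4B: ATGAGGGAAATCgtg
TUBB6: ATGAGGGAGATCgtg
TUBG1: ATGCCGAGGGAAatc
TUBA1A, TUBA1B and TUBA1C began with the same 15 bases, as did TUBB and TUBB4B, and TUBB3 and TUBB6. TUBG1, which does not enter the dimer pool, opened with other codons.

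The end of the coding sequence is shown because it is where isotypes differ most. The last 60 coding bases before the stop codon follow for the beta and gamma members, with the last sense codon in capitals.
TUBB: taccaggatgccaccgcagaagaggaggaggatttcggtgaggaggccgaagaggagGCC
TUBB2A: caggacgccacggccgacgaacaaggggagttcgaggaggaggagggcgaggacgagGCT
TUBB3: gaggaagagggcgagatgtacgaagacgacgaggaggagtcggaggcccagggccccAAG
TUBB4B: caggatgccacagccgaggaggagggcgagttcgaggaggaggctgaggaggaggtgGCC
TUBB6: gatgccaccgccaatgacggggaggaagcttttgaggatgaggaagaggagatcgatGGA
TUBG1: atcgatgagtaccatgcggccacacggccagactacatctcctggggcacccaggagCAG
TUBB and TUBB4B closed with the same codon, GCC, and TUBB2A, TUBB3, TUBB6 and TUBG1 each with another.

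These sequences bear on how reads were assigned. The whole coding sequences of TUBA1A and TUBA1B were 97.2% identical, those of TUBA1B and TUBA1C 96.8%, and those of TUBA1B and TUBA4A 85.7%. Among the beta tubulins identity ran from 80.9% (TUBB and TUBB6) to 87.8% (TUBB2A and TUBB3). Of all windows of 100 bases along the TUBA1B transcript, 37.2% also occurred exactly in a transcript of another tubulin gene or pseudogene, against 18.3% for TUBA1A, 11.5% for TUBA1C, 5.10% for TUBB and 2.86% for TUBB4B. TUBB6 had 0 such windows. TUBB2A shared 56.4% of its windows, nearly all of them with TUBB2B, and TUBG1 shared 14.9% with TUBG2. How the submitters assigned reads that match more than 1 gene is not given in the sources used here, so values of TUBA1A, TUBA1B and TUBA1C, and of TUBB2A and TUBB2B, are uncertain one by one. Sums over such genes are therefore given as well.

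The libraries as a whole differed as follows. The transfected gene RHCG was listed at 0 in mock cells and at 413 RPKM (reads per kilobase of transcript, scaled to library depth) in RHCG cells. The recovered depth was about 18900000 reads for mock and 22100000 reads for RHCG. RPKM is relative to each library's own total, and in such bulk RNA fewer cells expressing a gene and less RNA per cell cannot be told apart. In all, 12857 genes were listed above 0 in at least 1 library, and their median log2 ratio of RHCG over mock was −0.01. Of 12 squamous epithelium markers 11 were listed, and KRT5 was at 0 in both libraries. The list summed to 923 RPKM in mock and 453 RPKM in RHCG cells. Most of this was KRT13 (407 RPKM in mock and 164 RPKM in RHCG cells) and SFN (254 and 180 RPKM). Of the 11, 4 were called lower, against 3.30% of all tested genes, and 2, KRT14 and DSG3, lay above 0. The 4 were KRT13, KRT15 (101 RPKM in mock, 27.3 in RHCG cells), KRT6A (38.8 and 3.51 RPKM) and SOX2 (23.1 and 9.62 RPKM). The part of this marker difference in the tubulin values was not tested.

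All 10 tubulin genes were lower in the RHCG library, and 6 of them by 2-fold or more: TUBA1A, TUBA1B and TUBA1C, TUBB, TUBB3 and TUBB4B. The ratio used for calls was log2((RHCG + 1)/(mock + 1)) in RPKM, and a gene was called lower at −1 or less and higher at 1 or more. Over all tested genes 3.30% were called lower and 2.74% higher, 6.04% in either direction. The members' median log2 ratio was −1.12, and 50.5% of all tested genes lay below 0. These percentages are the background, and nothing is read from the members' count, since the list was chosen with it known.

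**Figure D1:**
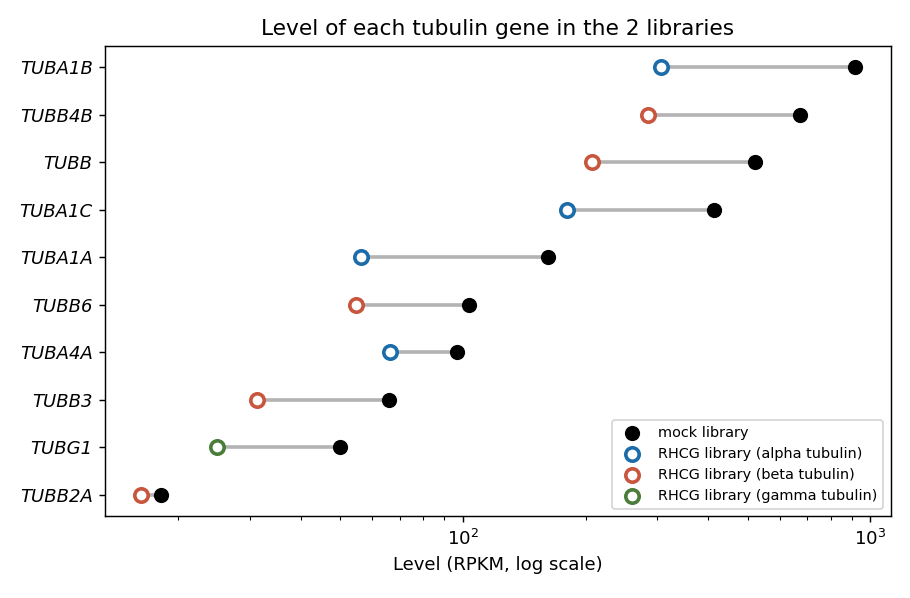
Level of each of the 10 tubulin genes in RPKM on a log scale, with filled points for the mock library and open points for the RHCG library, coloured by class. Every open point lies to the left of its filled point; the gap is widest for TUBA1B (915 and 306 RPKM) and narrowest for TUBB2A (18.1 and 16.2 RPKM).

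Among the alpha tubulins, TUBA1B, the main isotype of dividing cells, measured 915 RPKM in mock and 306 RPKM in RHCG cells. Its rank by level was 20 of 11199 listed protein-coding genes in mock and 101 of 10966 in RHCG cells. Its log2 ratio of −1.58 was the lowest of the 10, and 83 of the 12857 tested genes had a lower one. TUBA1C, a close neighbour of TUBA1B on chromosome 12, was at 412 and 180 RPKM (log2 ratio −1.19); here and below, the first value of a pair is mock and the second RHCG. TUBA1A, the isotype that prevails in developing neurons, was at 162 and 56.1 RPKM (log2 ratio −1.51). By counting error alone, TUBA1A and TUBA1B stood together and TUBA1C apart from both. The approximate 95% counting interval of the plain ratio on the log2 scale ran from −1.60 to −1.46 for TUBA1A. It ran from −1.61 to −1.55 for TUBA1B and from −1.23 to −1.16 for TUBA1C. These intervals do not cover how shared reads were split, so whether TUBA1C stands apart is uncertain. Because these genes share windows, their sum depends less on how reads were split; it was 1490 RPKM in mock and 543 RPKM in RHCG cells (log2 ratio −1.46).

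TUBA4A, the remaining alpha isotype, was at 97.0 and 66.1 RPKM. Its log2 ratio was −0.55, with a counting interval from −0.62 to −0.49, and it did not reach 2-fold. It shared no window of 100 bases with another member and 1.84% of its windows with TUBA4B, and the reference places TUBA4B and STK16 over part of the gene. TUBA4B was at 3.57 and 2.60 RPKM and STK16 at 14.2 and 15.2 RPKM. TUBA4A was the only alpha member that the 2-fold rule did not call.

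Among the beta tubulins, TUBB4B, an isotype found in most tissues and in cilia, measured 673 RPKM in mock and 285 RPKM in RHCG cells (log2 ratio −1.24). TUBB, the general beta isotype of dividing cells, was at 522 and 208 RPKM (−1.33). Both ranked among the 200 most abundant protein-coding genes in each library, TUBB4B at 44 and 114 and TUBB at 70 and 199. Of 10 multiciliated cell markers in the tables, 8 were listed at 0 in mock and 9 in RHCG cells, FOXJ1 and DNAI1 among them. Their summed level was 244 and 183 RPKM, nearly all of it CAPS.

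TUBB3, the class III isotype of neurons and of many carcinomas, was at 66.1 and 31.2 RPKM. Its log2 ratio of −1.06 made it the member just inside the 2-fold rule, and the counting interval of its plain ratio, −1.18 to −0.98, included −1. Neuron markers were few: of 14, 10 were listed at 0 in each library, among them SNAP25, STMN2 and DCX, and their summed level was 59.3 and 49.3 RPKM, mostly INA. TUBB6, the class V isotype, was at 104 and 54.7 RPKM and lay just outside the rule (−0.91). Part of TUBB6 lies under AFG3L2 in the reference, and AFG3L2 was at 61.0 and 93.4 RPKM.

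TUBB2A stood apart from the other members. It measured 18.1 RPKM in mock and 16.2 RPKM in RHCG cells (log2 ratio −0.15). These levels rested on about 548 and 572 reads, and the counting interval of its plain log2 ratio ran from −0.33 to 0.01. It was the only member whose interval included 0, so a difference between the libraries was not detectable at this depth. TUBB2B, with which it shares most windows, was at 10.7 and 8.49 RPKM, and the sum of both genes had a log2 ratio of −0.22.

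TUBG1, the nucleating gamma tubulin, was at 50.03 and 24.99 RPKM. Its log2 ratio with 1 RPKM added was −0.97, just short of a call, while the plain ratio was −1.001 with a counting interval from −1.12 to −0.88. TUBG2, its close copy next to it on chromosome 17, was at 25.2 and 18.2 RPKM (−0.45). The sum of both had a log2 ratio of −0.80.

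**Figure D2:**
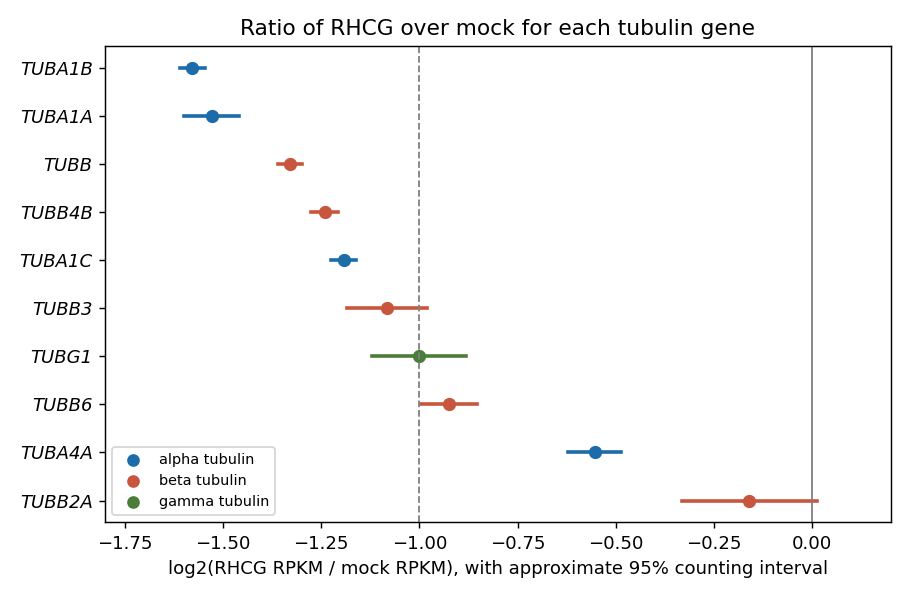
Plain log2 ratio of RHCG over mock for each tubulin gene (points, coloured by class) with approximate 95% counting intervals (lines); the dashed line marks −1 and the solid line 0. TUBA1B and TUBA1A lie lowest, near −1.58 and −1.53, and only the interval of TUBB2A reaches 0.

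The order of the isotypes changed little. In both libraries TUBA1B was highest, followed by TUBB4B, TUBB and TUBA1C, and TUBB3, TUBG1 and TUBB2A were the lowest. TUBA1A, TUBB6 and TUBA4A changed places. In the mock library TUBA1A led TUBB6 and TUBA4A, and in the RHCG library TUBA4A stood first of these 3 with 66.1 RPKM. In the RHCG library TUBA1A and TUBB6 did not differ beyond counting error, with intervals from 53.9 to 58.4 and from 52.6 to 56.9 RPKM. The 4 most abundant members were all called, against 2 of the other 6. Across the 10 genes the level in the mock library and the log2 ratio ran against each other (Spearman's rho −0.82, as a description; the level in the mock library is also the denominator of the ratio, and members share reads). Among 221 protein-coding genes with a mean of 200 RPKM or more, 13.1% were called lower. These 221 include the 4 most abundant members. The share was 3.99% of the 1178 genes with 50 to 200 RPKM and 2.96% of the 4364 with 10 to 50 RPKM.

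Summed levels allow the alpha and beta classes to be compared, since RPKM is per length of transcript. The 4 alpha members summed to 1587 RPKM in mock and 609 RPKM in RHCG cells. This was a 61.6% lower pool, with a log2 ratio of −1.38. The 5 beta members summed to 1383 and 594 RPKM, which was 57.0% lower (−1.22). The ratio of alpha to beta was thus 1.15 in mock and 1.02 in RHCG cells. With all listed alpha and beta tubulin genes and pseudogenes in the sums, the log2 ratios were −1.38 and −1.21.

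The share that differed most between the libraries was that of TUBA1B in the alpha pool, at −7.37 percentage points (RHCG minus mock), and that of TUBB in the beta pool, at −2.80 points. TUBA1B made up 57.7% of the alpha pool in mock and 50.3% in RHCG cells, and TUBA4A 6.11% and 10.9%. TUBA1C was at 26.0% and 29.6%, and TUBA1A at 10.2% and 9.21%. In the beta pool TUBB4B was at 48.7% and 47.9%, TUBB at 37.7% and 34.9%, and TUBB6 at 7.51% and 9.20%. TUBB3 was at 4.78% and 5.25%, and TUBB2A at 1.31% and 2.73%. The smaller share of TUBA1B in RHCG cells also depends on how shared reads were split. For TUBB4B, the most abundant beta isotype, the share was nearly the same. Its counting interval on the log2 scale, −1.28 to −1.21, included the ratio of the beta pool, −1.22. TUBA4A and TUBB2A, whose levels were closest between the libraries, had larger shares. That follows by arithmetic when every member of a pool is lower.

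**Figure D3:**
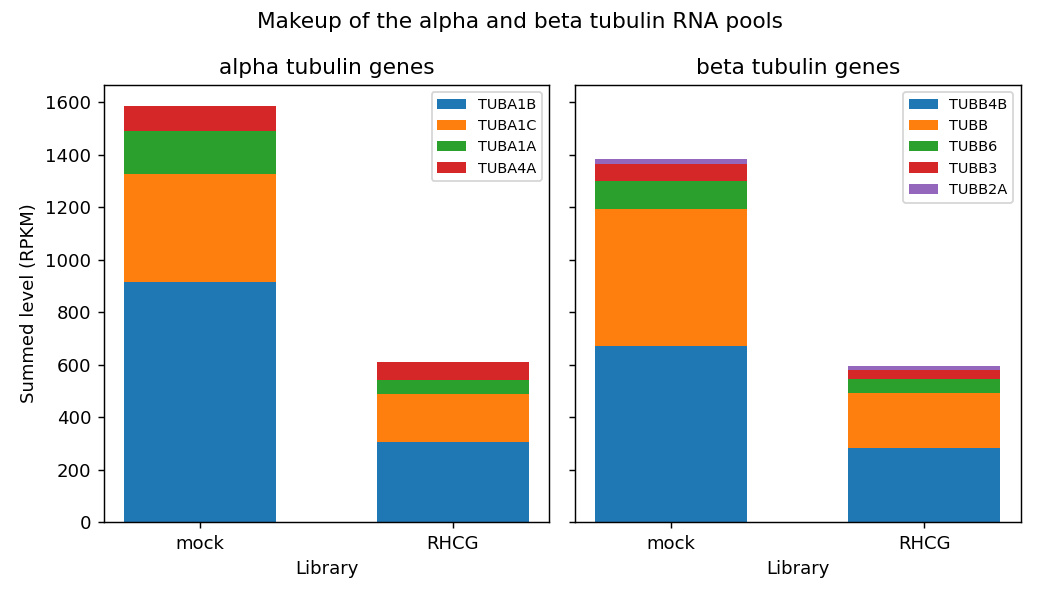
Summed RPKM of the 4 alpha (left) and 5 beta (right) tubulin genes in each library, stacked by gene, on a linear axis from 0. The alpha bar reaches 1587 RPKM for mock and 609 RPKM for RHCG, and the beta bar 1383 and 594 RPKM.

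Other tubulin genes were scarce. Of 13 further tubulin genes in a fixed list, 6 were listed above 0 in at least 1 library, 5 of them below a log2 ratio of 0. TUBE1, the epsilon tubulin of centriole triplets, went the other way: it measured 6.12 RPKM in mock and 18.1 RPKM in RHCG cells (log2 ratio 1.42). It was the only gene of that list to be called at the main settings. The delta tubulin TUBD1, which works with TUBE1 at centrioles, was at 2.80 and 2.03 RPKM. TUBA8 was at 2.26 and 1.02 RPKM. TUBB4A was at 1.42 RPKM in mock cells and listed at 0 in RHCG cells. TUBB1, the platelet isotype, and the testis alpha tubulins TUBA3C, TUBA3D and TUBA3E were listed at 0 in both. Of 46 tubulin pseudogenes in the tables, 45 were listed at 0 in both libraries.

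Lists of genes that fold, modify or bind tubulin had medians closer to 0 than that of the isotypes. In the folding list, which holds the chaperonin CCT, prefoldin and the tubulin cofactors, 1 of 23 genes was called lower and 1 higher, with a median log2 ratio of −0.22. The lower one was TCP1, a CCT subunit, at 89.7 and 42.9 RPKM (−1.05). The higher one was PFDN2, a prefoldin subunit that hands new tubulin to CCT, at 57.5 and 143 RPKM (1.30). The 8 CCT subunits alone had a median of −0.23 with 6 of them below 0. CCT6A was at 672 and 675 RPKM and CCT3 at 325 and 219 RPKM.

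None of the 12 autoregulation genes, TTC5, SCAPER and subunits of CCR4-NOT, was called, higher or lower, at a list median of −0.12. The most abundant were CNOT1, the scaffold of the complex (35.6 and 40.4 RPKM), and CNOT9 (41.2 and 27.8 RPKM). Of 15 listed enzymes that modify tubulin 0 were called, with a median of −0.10; the ligase family member TTLL12 was at 36.0 and 35.6 RPKM and the glutamate-removing enzyme AGBL5 at 28.6 and 23.1 RPKM. The partners of TUBG1, the gamma-tubulin ring and augmin subunits, had 0 of 22 called and a median of −0.09. MZT2A was at 58.2 and 54.7 RPKM, and TUBGCP2, a core ring subunit, at 46.9 and 36.6 RPKM.

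Lists of proteins that act on microtubules or free dimers had medians from −0.27 to 0.17. Of 17 plus-end genes, GTSE1 was called lower, at 11.8 and 5.25 RPKM, and the median was 0.08. Of 18 genes for proteins that bind along the lattice, MAP1B was called higher, at 2.14 and 6.18 RPKM, and the median was 0.17. Of 13 destabilizers and severing enzymes 0 were called, with a median of −0.27. KIF2C, a depolymerizing kinesin, was at 77.3 and 66.2 RPKM, and STMN1, which binds free dimers, at 47.6 and 31.1 RPKM. For comparison, 0 of 25 actin cytoskeleton genes were called and their median was 0.03, but most of that list encodes proteins that bind actin, and myosins. The genes for actin itself were both lower. ACTG1 was at 1800 and 1296 RPKM (log2 ratio −0.47) and ACTB at 1727 and 1105 RPKM (−0.64). Keratins, which form another cytoskeletal polymer, were not in the list. With 1 library per group none of these differences between lists was tested.

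**Figure D4:**
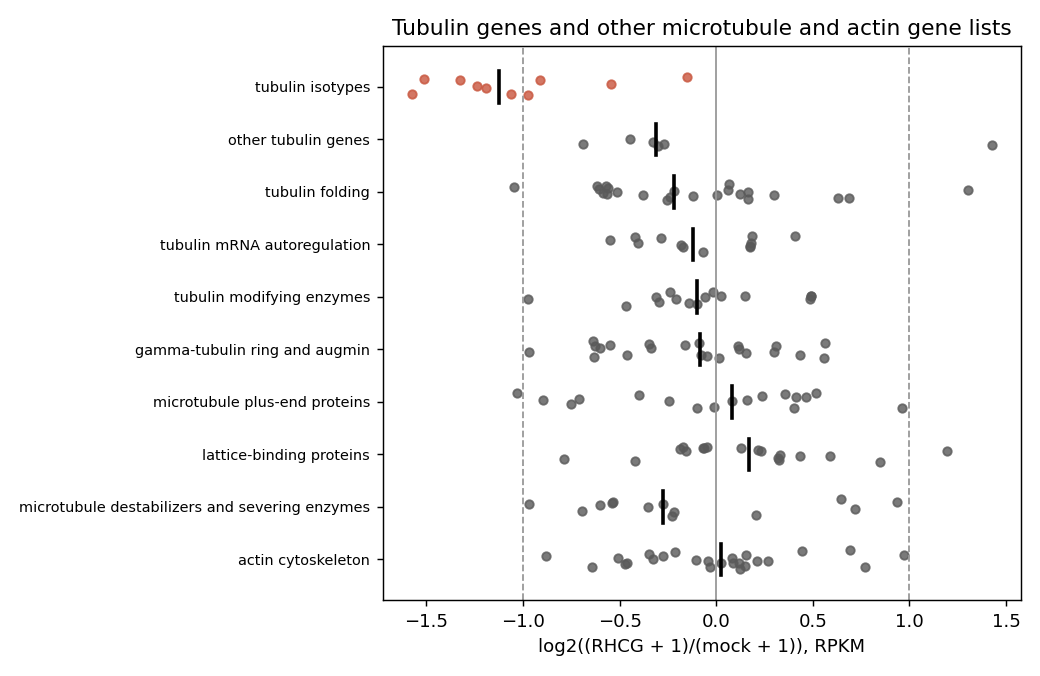
Log2 ratio of RHCG over mock, with 1 RPKM added, for the 10 tubulin isotypes (top) and the listed genes of each other list; points are genes, black bars list medians, and dashed lines −1 and 1. The tubulin median is −1.12, and those of the other lists lie between −0.31 and 0.17.

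To show the level of the surrounding genes, each member was set beside the tested protein-coding genes around it, up to 25 on each side with other members left out. TUBA1A, TUBA1B and TUBA1C are neighbours on chromosome 12 in a region that was itself lower: the median of the 48 genes around TUBA1B was −0.29, with 35 below 0 and 5 called lower. Of the 5 nearest genes on either side of TUBA1B, those called besides TUBA1A and TUBA1C were KCNH3 (6.78 and 2.01 RPKM) and RHEBL1 (3.75 and 1.02 RPKM). None of the 48 had a lower ratio than TUBA1B, and 4 had a lower one than TUBA1C. The difference from the neighbour median was −1.28 for TUBA1B, −1.16 for TUBA1A and −0.90 for TUBA1C.

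The other members lay in 7 other regions whose medians were near or above 0. Around TUBB, on chromosome 6, the median of 50 genes was 0.00, with 0 called in either direction; FLOT1, next to it, was at 134 and 163 RPKM. Around TUBB4B, close to the end of chromosome 9, the median of 37 genes was −0.03, and 0 were called. Around TUBB6, on chromosome 18, the median was 0.29 with 5 of 50 called higher, SPIRE1 among the nearest (24.4 and 59.2 RPKM), so TUBB6 stood 1.20 below its surroundings on the log2 scale. The medians were −0.04 around TUBB3 (chromosome 16), −0.07 around TUBG1 (chromosome 17), −0.04 around TUBA4A (chromosome 2), where GMPPA (35.4 and 15.4 RPKM) was called lower, and 0.13 around TUBB2A (chromosome 6), where PXDC1 (15.7 and 34.7 RPKM) was called higher. TUBE1, on the other arm of chromosome 6, had neighbours with a median of 0.23.

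**Figure D5:**
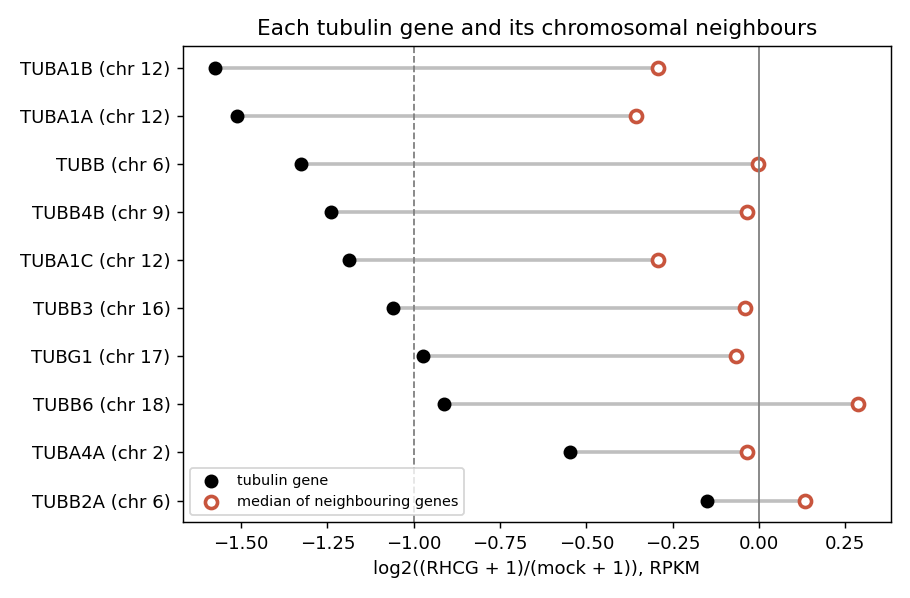
Log2 ratio of each tubulin gene (filled points) and the median of its neighbouring protein-coding genes (open points), with the chromosome in brackets. The open points lie between −0.36 and 0.29, to the right of the filled point for every gene.

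The members' promoters were searched for short motifs, as a description of their sequence. RefSeq promoters (GRCh38.p14) from 250 bases before to 50 after each start were found for all 10 genes, 15 promoters in all. The motifs, searched on both strands, were the CCAAT box, the GC box (GGGCGG), the TATA box (written as TATAAA), the E-box (written as CACGTG) and the cell cycle element known as CHR (written as TTTGAA). The CCAAT box was present in 9 of the 15 promoters (7 of 10 genes), against 34.7% of 22198 protein-coding promoters. GGGCGG was present in 9 of 15 (8 of 10 genes), against 56.3%. TATAAA was in 1 of 15 (1 gene), CACGTG in 2 (2 genes) and TTTGAA in 4 (2 genes, 3 of the promoters being those of TUBA1C), against 9.47%, 8.34% and 12.4% of all. A gene with several starts has more chances to hold a motif, overlapping promoters of TUBA1C count more than once, and a match is only a description. The 250 bases before the start are shown for the most abundant alpha and beta members, TUBA1B (GRCh38.p14 chr12:49131396-49131645, minus strand) and TUBB4B (chr9:137241037-137241286, plus strand), which held different motifs; capitals mark CCAAT and GGGCGG on either strand.
TUBA1B: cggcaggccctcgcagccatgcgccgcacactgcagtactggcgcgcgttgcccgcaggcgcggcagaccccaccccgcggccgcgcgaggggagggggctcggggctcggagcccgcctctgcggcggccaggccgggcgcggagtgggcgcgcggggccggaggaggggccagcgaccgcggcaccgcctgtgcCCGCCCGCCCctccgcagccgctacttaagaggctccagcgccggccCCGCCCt
TUBB4B: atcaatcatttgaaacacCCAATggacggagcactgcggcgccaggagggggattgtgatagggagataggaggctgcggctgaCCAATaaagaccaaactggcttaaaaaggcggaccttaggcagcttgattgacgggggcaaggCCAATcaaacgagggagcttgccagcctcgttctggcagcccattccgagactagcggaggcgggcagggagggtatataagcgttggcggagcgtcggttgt
TUBA1B held 3 GGGCGG matches, 2 of them overlapping, and 0 of CCAAT, while TUBB4B held 3 CCAAT and 0 of GGGCGG. No motif searched was present in all 10 genes.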

How the data were processed

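Ion Torrent sequencing of RiboMinus-depleted total RNA gave 1 table for each of 2 libraries, per the labels' protocols. The tools and builds named in the submitters' processing notes are bedtools 2.25.0 and hg19; the aligner and how reads were counted were not given in the sources used here. A header of RPKM stands over the deposited column, but its values are log2 values with nothing below 0. They were unlogged, and genes listed at 0 were set to 1 RPKM. Rows with a copy suffix (112 of 40448) were summed to 40392 genes; 38047 matched RefSeq symbols.

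Ratios, calls and the filter are those defined in the text: a mean of at least 1 RPKM and a place above 0 in at least 1 library left 12857 genes. The constant that 1 read is worth was found on small RNA genes. It was the one, of many tried, that put the most values near a whole number of reads. With it 25.8% (47 of 182) and 38.2% (66 of 173) of values under 20 reads lay within 0.01 reads of a whole number. An even spread gives 2% for a constant fixed beforehand, and these shares are the highest found, so they are no test of the constant. The remaining values were not near a whole number. Reads of single genes could not be recovered. Approximate read numbers used GENCODE lengths and the recovered depth, and their 95% exact (Clopper-Pearson or Poisson) intervals cover counting error only. PCR copies were not marked.

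The members, the 9 gene lists and 6 marker lists were chosen with earlier results of these data known. Named genes were all members, up to 4 called genes of each list or its 2 most abundant, and up to 3 called near neighbours. Genes listed at 0, further tubulins, overlapping genes, FLOT1 and CCT6A with CCT3 were added after their values were seen. Markers that were not called were named outside this rule. Coordinates belong to the promoter table only. Tools were Biopython 1.88, matplotlib 3.10.9, scipy 1.17.1, pandas 2.3.3, numpy 2.4.6 and Python 3.11.15. The coding ends of the alpha members are not reported here.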

Additional observations from a re-analysis of the deposited data

How the results depend on the processing

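No paired analysis or leave-out fit was possible because each group had a single library. All 10 members lay below 0 under every alternative run. In each, 6 were called lower, except at a ratio of 1.5, where 8 were (TUBB6 and TUBG1 in addition). Leaving out or raising the filter on the mean, the choice of row and the 0 setting could not alter any member. Each had 1 row, none was listed at 0 and the lowest mean was 17.2 RPKM. The ratio of 1.5 changes calls only. The members' ratios could thus move only with the pseudocount, both scalings and the neighbour shift. With the median of up to 50 neighbouring genes, other members kept among them, removed the 6 were not all the same: TUBA1C (−0.82) was no longer called and TUBB6 (−1.20) was, while TUBA1A was at −1.14, TUBA1B at −1.22 and TUBB4B at −1.20. TUBA1 genes are each other's neighbours there, so this removal takes out part of their own shift. With both scalings and with all listed tubulin genes the pools moved by no more than counting error. The row choice and the 0 setting could not change them either. They were not recomputed with the neighbour shift removed, where each TUBA1 gene, TUBB4B and TUBB6 moved by more than its counting error. Over all genes, the 424 lower and 352 higher calls were 673 and 533 at a pseudocount of 0.1 RPKM, 1004 and 686 if a 0 was kept at 0 RPKM, and 1481 and 1447 at a ratio of 1.5, each of which loosens the rule by construction. With the neighbour shift removed 317 were lower and 219 higher, among the 11431 protein-coding genes that setting could use. Median-of-ratios and trimmed mean scaling moved all ratios by −0.01. In the list of other tubulin genes 1 was called lower at a pseudocount of 0.1 RPKM, with a 0 kept at 0 RPKM and at a ratio of 1.5. Its median was −0.45 at that pseudocount. Of the remaining lists, the lattice-binding genes had 0 called higher with the neighbour shift removed or with a mean of at least 5 RPKM, a setting added after the data were seen. With that shift removed the plus-end median was −0.09, the autoregulation median 0.15 and the gamma-tubulin ring and augmin median −0.25, and 1 modifying enzyme and 1 destabilizer were called lower and 1 plus-end gene higher. At a pseudocount of 0.1 RPKM 1 modifying enzyme, 1 gamma-tubulin ring or augmin gene and 1 destabilizer were lower, and 1 plus-end gene and 1 destabilizer higher. Among the members, counting error spanned a ratio of 0 on the log2 scale for TUBB2A only.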
